A study of Mus musculus with 2 samples.

Results

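The genes described here are *Gas5* and 6 members of the *Snhg* family (*Snhg1*, *Snhg3*, *Snhg5*, *Snhg6*, *Snhg8* and *Snhg12*), noncoding genes that host small nucleolar RNAs (snoRNAs). They were chosen by name, as the rows whose Ensembl identifier maps to these symbols in GENCODE M21, and made up 7 of the 54146 genes in the count tables. Each symbol matched 1 row. The question was how each was expressed in single mouse embryonic stem (ES) cells, and whether it followed the share of a cell's RNA that came from ribosomal protein (RP) genes or from nuclear long noncoding RNAs.

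snoRNAs guide the chemical modification and cleavage of ribosomal RNA in the nucleolus. C/D box snoRNAs direct 2′-O-methylation and H/ACA box snoRNAs direct pseudouridylation. In mammals most are cut out of the introns of host genes, and the spliced exons of a noncoding host such as *Gas5* are exported, enter ribosomes and are usually removed by nonsense-mediated decay (NMD). Many hosts, like the RP genes, begin transcription at a C followed by a run of pyrimidines, the 5′TOP motif, through which translation responds to growth signals.

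Cells came from 2 inDrop libraries, a droplet method in which a barcode names the cell and a random tag, the unique molecular identifier (UMI), names the transcript. One library was of wild-type ES cells derived from the inner cell mass, which the labels give as untreated, and the other of *Lin28a* knockout ES cells. Both cultures were grown for 2 days in LIF/2i medium on gelatin-coated plates with mouse embryonic fibroblast (MEF) feeder cells. According to the methods of the study, knockout lines were clones picked after CRISPR/Cas9 editing with a guide to the second exon of *Lin28a*, which encodes an RNA-binding protein. Each library came from 1 clone, and the study's supplement describes the wild-type clone as transfected too. Each genotype had 1 library, with no replicate, and nothing was tested. Intervals (exact Poisson for levels, exact conditional binomial for ratios, exact binomial for shares, all at 95%) cover counting error only, and the genotype, the clone, the culture and the library preparation cannot be told apart.

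After removal of barcodes under 500 UMIs or with over 20% mitochondrial UMIs, 1856 wild-type and 1622 knockout cells remained, with medians of 6140 and 5063.5 UMIs per cell. Levels are UMIs per 1000000 UMIs over these cells (CPM). A transcript gives 1 tag near its 3′ end, so levels of different genes were compared with no scaling by length. *Lin28a* had 107 CPM (101 to 113) in wild-type and 36.6 CPM (32.8 to 40.7) in knockout cells, a ratio of 0.343 (0.304 to 0.387), and a tag near the 3′ end does not read the edited exon. All 10 ES markers examined were found in both libraries, at 4873 and 5040 CPM in sum. The 12 fibroblast markers summed to 1417 CPM in wild-type and 671 CPM in knockout cells. Barcodes carry only running numbers in the tables, so barcodes shared between the libraries could not be counted.

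The hosts differ widely in what they carry. GENCODE M21 places 29 snoRNA entries within the 7 genes on the same strand. These were 10 in *Gas5*, 8 in *Snhg1*, 5 in *Snhg12*, 2 each in *Snhg3* and *Snhg5*, and 1 each in *Snhg6* and *Snhg8*. Every one of the 29 lay in an intron of at least 1 annotated host transcript, and 9 are named as C/D and 7 as H/ACA snoRNAs, while the other 13 carry other names. Overlapping entries of *Snord80* and of *Snora16a* are counted separately. At least 1 snoRNA of each host is printed below to show the RNAs that the introns hold. They are from GENCODE M21 (GRCm38), 5′ to 3′, with the C box core TGATGA and the D box CTGA of C/D snoRNAs, or the ACA of H/ACA snoRNAs, in capitals where a search for these letters found them.
Snord47 (*Gas5*, chr1:161038082-161038158, plus strand): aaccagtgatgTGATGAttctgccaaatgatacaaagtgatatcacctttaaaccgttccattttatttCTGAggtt
Snord80 (*Gas5*, chr1:161037601-161037681, plus strand): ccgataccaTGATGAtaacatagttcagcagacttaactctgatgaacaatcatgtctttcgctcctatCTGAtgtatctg
Snord22 (*Snhg1*, chr19:8725866-8725991, plus strand): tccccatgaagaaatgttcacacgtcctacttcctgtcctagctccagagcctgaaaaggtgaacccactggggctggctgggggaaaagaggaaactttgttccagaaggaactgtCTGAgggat
Snora73a (*Snhg3*, chr4:132352775-132352979, minus strand): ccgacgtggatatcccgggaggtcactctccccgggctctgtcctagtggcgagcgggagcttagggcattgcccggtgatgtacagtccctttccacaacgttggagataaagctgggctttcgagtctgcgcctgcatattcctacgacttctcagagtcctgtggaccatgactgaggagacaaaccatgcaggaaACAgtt
Snora73b (*Snhg3*, chr4:132352322-132352526, minus strand): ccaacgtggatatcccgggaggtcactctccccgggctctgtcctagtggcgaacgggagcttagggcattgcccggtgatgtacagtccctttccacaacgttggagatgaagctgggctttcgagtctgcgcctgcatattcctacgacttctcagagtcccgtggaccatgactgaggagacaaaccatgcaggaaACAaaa
Snord50a (*Snhg5*, chr9:88521529-88521600, minus strand): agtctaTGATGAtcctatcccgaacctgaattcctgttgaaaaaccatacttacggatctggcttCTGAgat
Snord50b (*Snhg5*, chr9:88521797-88521868, minus strand): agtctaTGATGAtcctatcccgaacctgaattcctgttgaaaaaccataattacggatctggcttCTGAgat
Snord87 (*Snhg6*, chr1:9942463-9942549, minus strand): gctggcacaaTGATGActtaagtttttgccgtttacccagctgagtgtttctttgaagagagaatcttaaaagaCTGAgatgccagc
Snora24 (*Snhg8*, chr3:123507937-123508066, minus strand): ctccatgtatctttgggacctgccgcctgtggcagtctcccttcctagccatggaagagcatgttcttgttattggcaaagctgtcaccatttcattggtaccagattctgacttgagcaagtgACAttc
Snord99 (*Snhg12*, chr4:132310691-132310764, plus strand): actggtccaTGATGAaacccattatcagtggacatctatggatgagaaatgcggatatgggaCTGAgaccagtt

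*Snord22* of *Snhg1* has a D box but no exact TGATGA. The *Snhg5* pair differed at 1 of 72 bases, C50A (position 50 counted from the 5′ end, *Snord50a* first and *Snord50b* second), and the *Snhg3* pair at 7 of 205 bases. Mature snoRNAs have no poly(A) tail and were hardly seen by the poly(dT)-primed libraries. Over all barcodes, 9 of the 29 entries had 0 UMIs in both libraries, and apart from *Snora73b* none had more than 6 in the wild-type or 4 in the knockout library. *Snora73b*, at 29 and 34 UMIs, was the exception, and its near-identical copy *Snora73a* had 4 and 3. The values that follow are UMIs counted on the host genes, and the tables do not divide spliced from unspliced RNA.

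The start sites of 6 of the hosts were listed by RefSeq (GRCm38.p6), *Gas5* with 2 of them. The sequences below run from 10 bases before the start to 20 bases from it. Capitals mark a run of at least 5 pyrimidines that begins with C within 5 bases of the start on the transcribed strand. This is looser than the 5′TOP motif, in which a C is the first transcribed base.
Gas5 start 1 (chr1:161034591-161034620, plus strand): gcgggcccgcgagctcgacagcccggagcc
Gas5 start 2 (chr1:161035156-161035185, plus strand): ccatctcagCCTTTCggagctgtgcggcat
Snhg8 (chr3:123508317-123508346, minus strand): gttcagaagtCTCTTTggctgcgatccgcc
Snhg12 (chr4:132308668-132308697, plus strand): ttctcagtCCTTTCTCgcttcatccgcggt
Snhg3 (chr4:132353667-132353696, minus strand): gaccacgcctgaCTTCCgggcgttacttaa
Snhg5 (chr9:88522878-88522907, minus strand): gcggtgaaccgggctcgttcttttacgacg
Snhg1 (chr19:8723477-8723506, plus strand): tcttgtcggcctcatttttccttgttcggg

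Such a run was found at 4 of these 7 starts, in *Gas5*, *Snhg8*, *Snhg12* and *Snhg3*. The run began at base 1 of the transcript in *Snhg8* and at base 3 in *Snhg3*. It began 1 base before the start in *Gas5* and 2 bases before it in *Snhg12*. It was found at 18.3% of the 32851 start sites in the table, at 42.3% of the 78 of RP genes, at 44.4% of the 9 of other translation factor genes of the 5′TOP class, at 30.8% of the 13 of other noncoding hosts and at 20% of the 10 of nuclear long noncoding RNAs. A match describes the letters at an annotated start and does not show that translation is controlled there. Annotated starts can be off by a few bases.

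*Snhg1*, the host of *Snord22* and 7 other entries (chr19:8723475-8726443, plus strand), was the most abundant of the hosts. It had 1737 UMIs in wild-type and 1621 in knockout cells, or 149 CPM (142 to 156) and 174 CPM (165 to 182). *Snhg12* (chr4:132308623-132311024, plus strand), the host of *Snora16a*, *Snora44*, *Snora61* and *Snord99*, came next, with 106 CPM (100.3 to 112) and 89.7 CPM (83.7 to 96.0). *Snhg8* (chr3:123507552-123508404, minus strand), the host of *Snora24*, had 63.4 CPM (58.9 to 68.2) and 75.4 CPM (69.9 to 81.1).

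The other hosts were lower. *Snhg5* (chr9:88521050-88522929, minus strand) had 52.7 CPM (48.6 to 57.0) in wild-type and 36.1 CPM (32.3 to 40.1) in knockout cells. *Snhg3* (chr4:132348014-132353686, minus strand), the host of the 2 *Snora73* copies, which take part in the cleavage of pre-rRNA, had 45.8 CPM (41.99 to 49.9) and 25.2 CPM (22.04 to 28.6). *Snhg6* (chr1:9941959-9944118, minus strand) had 33.7 CPM (30.4 to 37.2) and 30.2 CPM (26.8 to 33.9). *Gas5* (chr1:161034422-161038539, plus strand), the best known host, was the lowest in both libraries, with 225 and 173 UMIs, or 19.3 CPM (16.9 to 22.03) and 18.5 CPM (15.9 to 21.5).

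The order of the levels was the same in both libraries but for *Snhg3* and *Snhg6*, which changed places. Each host differed from the next in the order by more than counting error, most narrowly *Snhg5* from *Snhg3* in the wild-type library, at 1.15-fold (1.02 to 1.29), and *Snhg6* from *Snhg3* in knockout cells, at 1.20-fold (1.01 to 1.43). Few UMIs were ambiguous between genes, between 0 and 6 per host and library. *Snhg3* lies on the same strand as *Rcc1* over 5592 bases, and *Rcc1* had 2042 and 1889 UMIs over all barcodes, so the split of tags between the 2 genes, and with it the level of *Snhg3*, is uncertain. On opposite strands *Snhg3* and *Gm17300* overlap by 1611 bases, *Gas5* and *Zbtb37* by 428 bases and *Snhg6* and *Mcmdc2* by 127 bases.

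In the wild-type library the share of cells with at least 1 UMI of a host ran from 8.62% (7.38 to 9.99) for *Gas5* to 54.9% (52.6 to 57.2) for *Snhg1*, and in knockout cells from 9.68% (8.28 to 11.2) to 45.2% (42.7 to 47.7). For *Snhg1* the share was smaller in knockout cells although the level was higher. When each cell was taken at 500 UMIs, the shares were 6.95% and 7.05%, and knockout cells with *Snhg1* had a mean of 2.21 UMIs of it against 1.70 in wild-type cells. At 500 UMIs per cell the shares of *Snhg3* were 2.35% and 1.20%, those of *Snhg5* 2.59% and 1.44%, and those of *Gas5* 1.02% and 0.808%. For *Gas5* the order turned at 1000 UMIs per cell, which leaves out shallower cells, at 1.76% and 1.96%. No cell type of these cultures is known to lack the hosts, so the part of free RNA in these shares was not tested.

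Between the libraries, *Snhg3* and *Snhg5* were lower in knockout cells, *Snhg1* and *Snhg8* were slightly higher, and *Snhg6* and *Gas5* differed by less than counting error. The ratio of knockout over wild-type CPM was 0.549 (0.469 to 0.642) for *Snhg3*, 0.685 (0.598 to 0.784) for *Snhg5* and 0.846 (0.774 to 0.924) for *Snhg12*. It was 1.16 (1.09 to 1.24) for *Snhg1* and 1.19 (1.07 to 1.32) for *Snhg8*. It was 0.896 (0.766 to 1.05) for *Snhg6* and 0.958 (0.781 to 1.17) for *Gas5*. Past a ratio of 1.5 in either direction there was only *Snhg3*, which was lower, or 1 of the 7 hosts. Of all 9835 genes with at least 200 UMIs over both libraries, 8.50% were lower by this measure and 6.50% higher. The median ratio of the 7 hosts was 0.896, beside 1.01 over all these genes. The ratio of *Gas5* depended on collagen-rich cells, as described below, and that of *Snhg1* was 1.07 (0.965 to 1.18) in cells of 5000 to 10000 UMIs.

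**Figure D1:**
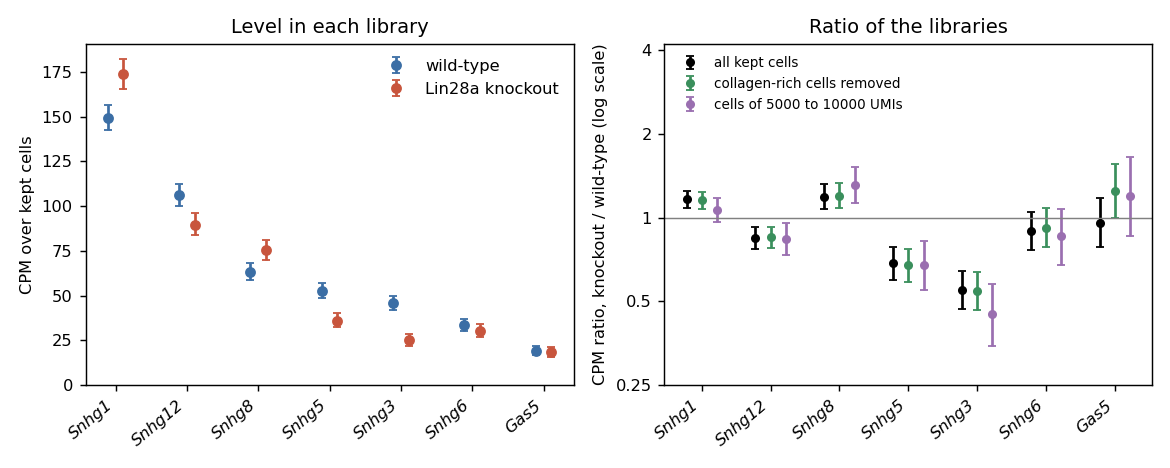
Left, CPM of each host over the kept cells of the wild-type (blue) and *Lin28a* knockout (red) library, with exact Poisson intervals at 95%. Right, ratio of knockout over wild-type CPM (log scale) over all kept cells, without collagen-rich cells and in cells of 5000 to 10000 UMIs, with exact intervals for counting error; *Snhg3* and *Snhg5* lie below 1 in all 3 sets, while *Gas5* moves from 0.958 to 1.24 without collagen-rich cells.

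Of the 14 other noncoding hosts listed, 12 were in the tables and 8 had at least 200 UMIs, with a median ratio of 1.24. All 8 were above 1, beside 5136 of the 9835 genes. Past 1.5-fold there was 1, *Snhg20*, at 1.54 (1.20 to 1.96). *Zfas1*, the most abundant, had 160 CPM in wild-type and 200.2 CPM in knockout cells, a ratio of 1.25 (1.17 to 1.33). *Epb41l4aos* had a ratio of 1.05 (0.963 to 1.14) and *Snhg14*, the large imprinted host of the *Snord115* and *Snord116* clusters, of 1.11 (0.961 to 1.27).

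Genes of proteins that act with the hosts or their snoRNAs all had ratios nearer to 1 than *Snhg3*. Of the 11 genes of C/D snoRNPs and their assembly, 0 passed 1.5-fold and the median ratio was 0.949. *Nop58* and *Nop56*, core proteins of C/D snoRNPs, had ratios of 0.689 (0.653 to 0.726) and 0.840 (0.800 to 0.881), and *Nolc1*, a nucleolar chaperone of snoRNPs, 0.779 (0.747 to 0.813). Of the 6 H/ACA genes 0 passed, with a median of 1.03, and *Dkc1*, the pseudouridine synthase, had 0.777 (0.733 to 0.823), *Nhp2* 1.18 (1.12 to 1.24) and *Gar1* 0.943 (0.877 to 1.01). Of the 12 NMD genes 2 were lower and 0 higher past 1.5-fold, with a median of 0.937. These were *Smg1*, the kinase of *Upf1*, at 0.623 (0.556 to 0.697), and *Upf3b*, at 0.650 (0.597 to 0.708), while *Smg5* had 1.36 (1.24 to 1.48) and *Eif4a3* 0.967 (0.889 to 1.05). Of the 15 other mRNAs of the 5′TOP class 0 passed and the median was 0.994, with *Npm1* at 0.689 (0.678 to 0.700), *Pabpc1* at 0.780 (0.767 to 0.794) and *Eef1a1* at 1.03 (1.03 to 1.04).

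RP share (UMIs on 87 RP genes as a percentage of all UMIs of a cell) had a median of 9.72% in wild-type and 10.8% in knockout cells. Cells of each library were ordered by it and cut into 5 groups of equal size (quintiles). The highest quintile of wild-type cells had medians of 15.8% RP and 0.357% mitochondrial UMIs, and the lowest 7.34% and 2.23%. In knockout cells the highest quintile had 17.6% and 0.255%, and the lowest 3.43% and 5.07%, with a median of only 1231 UMIs per cell. The median depth of the knockout quintiles lay between 1231 and 8497.5 UMIs. Between the deepest and the shallowest quintile of knockout cells by UMIs the hosts had a median fold of 2.40, beside 1.08 over all genes, from 1 to 28 UMIs per host in the shallowest. In wild-type cells the same median was 0.869, beside 1.01 over all genes, from 22 to 94 UMIs per host. Between the highest and lowest quintile of mitochondrial share, the hosts had a median fold of 1.21 in wild-type and 1.59 in knockout cells. Over all genes these medians were 1.17 and 1.35. *Snhg8* had the lowest fold of the 7 hosts by this share, at 0.396 (0.302 to 0.515) and 0.379 (0.260 to 0.539). The parts of depth and mitochondrial share in the results by RP share were not tested.

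*Snhg8* was higher in the highest than in the lowest quintile of RP share in both libraries, which held for none of the other 6 hosts between these quintiles. Its CPM over the 5 groups, from the lowest RP share to the highest, was 48.4, 46.3, 51.4, 67.1 and 99.5 in wild-type and 32.3, 57.3, 69.6, 85.6 and 116 in knockout cells. The highest quintile was 2.06-fold (1.62 to 2.63) above the lowest in wild-type and 3.59-fold (2.32 to 5.84) in knockout cells. In cells of 5000 to 10000 UMIs, 1042 wild-type and 507 knockout cells, those above the median RP share had 1.70 (1.41 to 2.07) and 1.84 (1.45 to 2.35) times the *Snhg8* CPM of those below it.

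*Snhg1*, *Snhg3* and *Snhg5* were lowest in the cells with the most RP RNA. *Snhg1* had 143, 165, 157, 169 and 115 CPM over the quintiles of the wild-type and 117, 212, 209.6, 187 and 84.3 CPM over those of the knockout library. The step from the fourth to the highest quintile was a ratio of 0.682 (0.583 to 0.797) in wild-type and 0.449 (0.368 to 0.548) in knockout cells. For *Snhg3* this step was 0.393 (0.287 to 0.534) and 0.453 (0.235 to 0.853), and for *Snhg5* 0.523 (0.394 to 0.690) and 0.476 (0.300 to 0.747). In knockout cells *Snhg1* and *Snhg5* were also lower in the lowest quintile than in the second, so that their levels peaked in the middle. With no minimum of UMIs per barcode, *Snhg1*, *Snhg3* and *Snhg5* were higher in the highest than in the lowest wild-type quintile. So was *Snhg1* in the knockout library. When cells of at least 5% RP were set against the rest, the direction turned for *Snhg1*, at 2.09 (1.01 to 5.22) in wild-type and 1.93 (1.34 to 2.87) in knockout cells. The wild-type values of *Snhg3*, 1.12 (0.435 to 4.13), and *Snhg5*, 1.29 (0.501 to 4.75), rest on 4 UMIs each below 5% and give no direction. In knockout cells *Snhg5* was at 1.71 (0.822 to 4.29), which gives no direction either, and *Snhg3* stayed lower at high RP share, at 0.466 (0.284 to 0.815). *Snhg3* had 53.9 CPM in the lowest and 24.4 CPM in the highest wild-type quintile, and 33.7 and 9.03 CPM in knockout cells.

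*Snhg6* had no steady trend. It had 33.2, 31.5, 28.02, 47.3 and 29.8 CPM in wild-type and 21.99, 34.9, 39.6, 26.6 and 17.1 CPM in knockout cells, and the intervals of the ratio of the highest over the lowest quintile, 0.637 to 1.27 and 0.411 to 1.53, both included 1. *Snhg12* had 78.1, 95.4, 115, 120 and 118 CPM in the wild-type, a ratio of 1.51 (1.24 to 1.85). In knockout cells it had 125, 78.3, 88.4, 84.1 and 99.3 CPM, a ratio of 0.797 (0.615 to 1.04), with the highest level in the cells with the least RP RNA. Within the depth range used for *Snhg8* above, *Snhg12* was compared between cells above and below the median RP share. The ratio was then 1.29 (1.12 to 1.49) in wild-type and 1.14 (0.913 to 1.43) in knockout cells, so the lower knockout value was not seen there. *Gas5* had 33.2, 19.6, 13.4, 18.4 and 14.7 CPM in wild-type and 27.9, 23.8, 18.8, 14.02 and 10.5 CPM in knockout cells, ratios of 0.443 (0.289 to 0.670) and 0.378 (0.194 to 0.744). The lowest wild-type quintile held 18 of the 31 collagen-rich cells described below, and without these 31 cells the wild-type ratio was 0.687 (0.412 to 1.14).

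**Figure D2:**
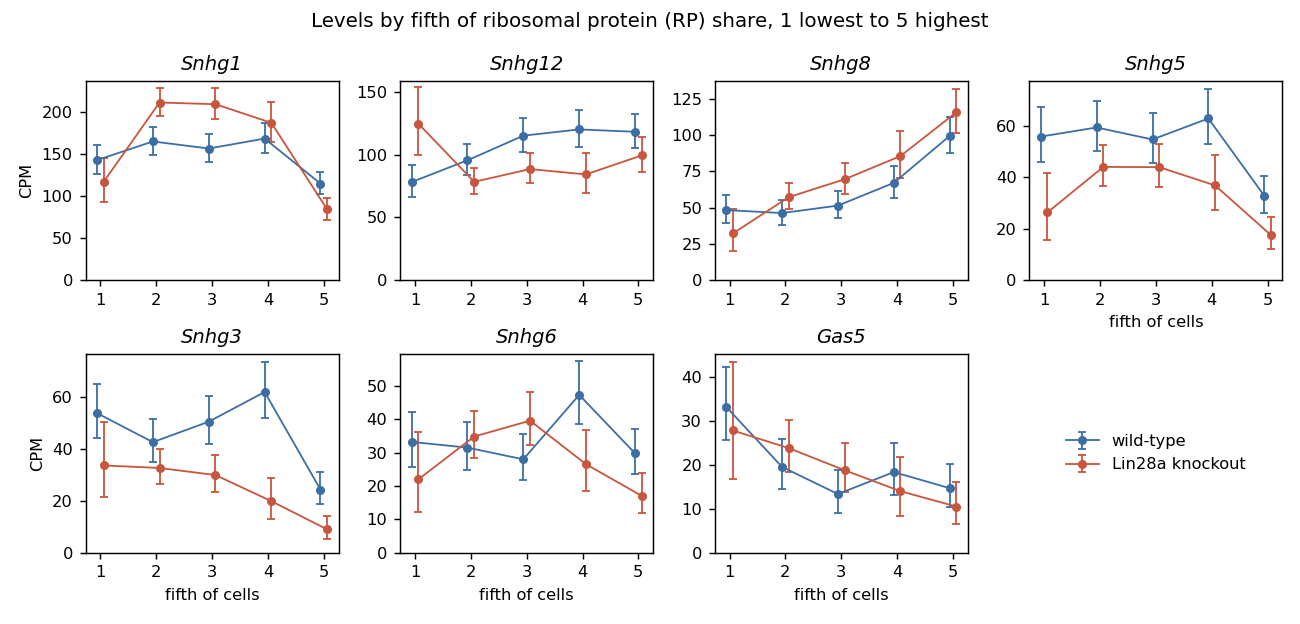
CPM of each host in the 5 equal groups of cells ordered by RP share, 1 the lowest and 5 the highest, in the wild-type (blue) and knockout (red) library, with exact Poisson intervals at 95%. *Snhg8* reaches 99.5 and 116 CPM in the highest group, where *Snhg1*, *Snhg3* and *Snhg5* are lower than in the group below it in both libraries.

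Read against all genes, the hosts did not stand out as a group. Past 1.5-fold between the highest and lowest RP quintile, 2 of the 7 were higher in the wild-type library (*Snhg8* and *Snhg12*) and 3 lower (*Snhg3*, *Snhg5* and, only with collagen-rich cells kept, *Gas5*), while 23.7% of 10050 genes outside the RP set with at least 100 UMIs were higher and 44.6% lower. In knockout cells 1 was higher (*Snhg8*) and 3 lower (*Gas5*, *Snhg3* and, at 0.665 with an interval of 0.367 to 1.25, *Snhg5*), while 28.2% of 9395 genes were higher and 49.3% lower. The median fold of the hosts was 0.804 in wild-type and 0.718 in knockout cells, beside 0.769 and 0.684 over all genes. The 8 other noncoding hosts had medians of 1.39 and 1.16, with 3 higher and 2 lower in wild-type and 4 higher and 2 lower in knockout cells. The lower ones were *Snhg14*, at 0.159 (0.0989 to 0.246) and 0.0821 (0.0462 to 0.139), and *Snhg11*, at 0.431 (0.304 to 0.606) and 0.152 (0.106 to 0.216). *Zfas1* had 1.90-fold (1.63 to 2.21) and 1.79-fold (1.44 to 2.23), and *Epb41l4aos* 1.52-fold (1.26 to 1.84) and 1.77-fold (1.30 to 2.46). Of the 5′TOP mRNAs outside the RP set, 5 of 15 were higher and 7 lower in wild-type and 7 higher and 7 lower in knockout cells. *Eef2*, the elongation factor of translocation, and *Rack1*, a protein of the small ribosomal subunit, had 2.71-fold (2.49 to 2.94) and 2.77-fold (2.65 to 2.90) in the wild-type library, and *Npm1*, a nucleolar chaperone, 0.328 (0.316 to 0.340). In the same library *Pabpc1* had 0.382 (0.366 to 0.397) and *Eef1a1* 0.830 (0.814 to 0.846).

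Nuclear share was the share of UMIs on 12 nuclear long noncoding RNAs, mostly *Malat1*. Its median was 0.494% in wild-type and 0.236% in knockout cells, and *Malat1* itself had a ratio of knockout over wild-type CPM of 0.398 (0.391 to 0.405). Of the 9 genes of the list with at least 200 UMIs, 3 were lower past 1.5-fold (*Malat1*, *Rian* at 0.472 and *Mirg* at 0.580) and 0 higher, and *Kcnq1ot1* had 1.28 (1.23 to 1.33) and *Meg3* 0.701 (0.676 to 0.728). In knockout cells the highest quintile of nuclear share had medians of 1410.5 UMIs per cell, 4.11% RP and 4.37% mitochondrial UMIs. The lowest had 4911 UMIs, 15.1% and 0.579%. The parts of depth and mitochondrial share in the results by nuclear share were not tested. Nuclear and RP share ran against each other. Of the genes outside both sets, 91.3% in wild-type and 92.6% in knockout cells lay on opposite sides of 1 in the 2 comparisons, so the comparisons are largely 1 axis read from its ends.

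*Snhg8* had the lowest fold of the 7 hosts between the highest and the lowest quintile of nuclear share in both libraries. From the lowest to the highest quintile of nuclear share it had 92.1, 68.5, 51.6, 55.9 and 47.4 CPM in wild-type and 97.8, 80.0, 76.6, 65.0 and 46.9 CPM in knockout cells, ratios of 0.515 (0.401 to 0.657) and 0.480 (0.339 to 0.667). With no minimum of UMIs per barcode the wild-type ratio turned to 3.84 (1.02 to 32.5). *Gas5* had the highest fold in wild-type cells. It had 12.5, 10.1, 11.3, 17.1 and 49.8 CPM in the wild-type, a ratio of 3.995 (2.62 to 6.26), and 12.8, 17.8, 19.4, 18.3 and 27.9 CPM in knockout cells, a ratio of 2.19 (1.20 to 4.06). In the wild-type library nearly the whole of this lay in the highest quintile, which also held all 31 collagen-rich cells described below.

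*Snhg3* was higher in the highest than in the lowest nuclear quintile of the knockout library, at 34.9 and 14.6 CPM, a ratio of 2.40 (1.38 to 4.21), and in the wild-type library its ratio was 1.23 (0.887 to 1.71), with the peak in the middle quintile. *Snhg6* had a ratio of 1.39 (1.02 to 1.91) in wild-type and 1.23 (0.741 to 2.03) in knockout cells. Without collagen-rich cells its wild-type ratio was 1.16 (0.830 to 1.63), which includes 1. For *Snhg1*, *Snhg5* and *Snhg12* the intervals of the ratio included 1 in both libraries, and the ratios lay between 0.904 and 1.25. Past 1.5-fold, 1 host was higher (*Gas5*) and 1 lower (*Snhg8*) in the wild-type library, beside 39.0% and 21.3% of 10127 genes. In knockout cells 2 were higher (*Gas5* and *Snhg3*) and 1 lower (*Snhg8*), beside 41.8% and 24.6% of 9471 genes. The median over the hosts was 1.101 and 1.23, beside 1.23 and 1.23 over all genes.

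**Figure D3:**
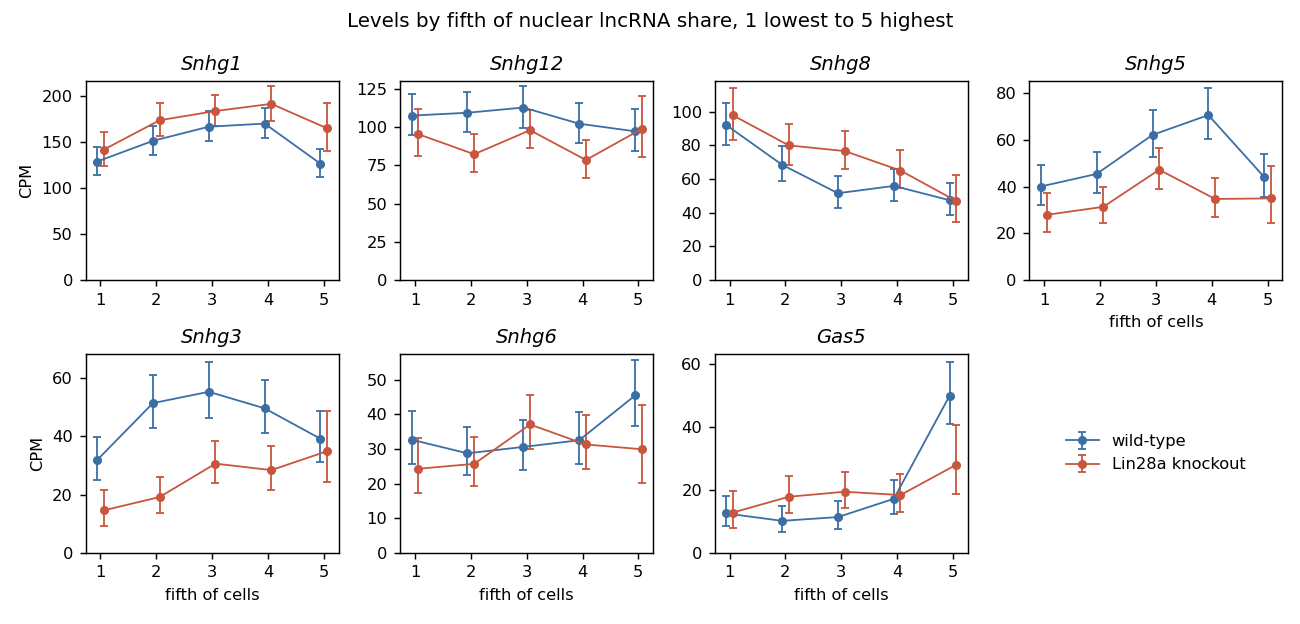
CPM of each host in the 5 equal groups of cells ordered by the share of UMIs on 12 nuclear long noncoding RNAs, 1 the lowest and 5 the highest, in the wild-type (blue) and knockout (red) library, with exact Poisson intervals at 95%. *Gas5* reaches 49.8 CPM in the highest wild-type group, and in both libraries *Snhg8* has less there than in any other group, at 47.4 and 46.9 CPM.

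Nuclear share was also compared with RP share partly held, in cells of 5000 to 10000 UMIs cut at the median RP share and then, on each side, at the median nuclear share. For *Snhg8* the ratio of nuclear-rich over nuclear-poor cells was then 0.830 (0.688 to 0.9998) in wild-type and 0.851 (0.674 to 1.07) in knockout cells. Among wild-type cells of lower RP share it had 46.2 CPM in the nuclear-poor and 46.7 CPM in the nuclear-rich cells. Among those of higher RP share it had 90.7 and 67.4 CPM, and the nuclear-poor ones also had more RP RNA, at medians of 14.7% and 10.8%. For *Gas5* the ratio by nuclear share was 1.88 (1.24 to 2.88) in wild-type and 0.733 (0.428 to 1.24) in knockout cells. The collagen-rich cells of this depth, described below, were kept here, and their part in these ratios was not tested. For the other 5 hosts every interval by nuclear share included 1, with *Snhg3* in knockout cells at 1.11 (0.694 to 1.79). By RP share alone, with nuclear share not held, *Snhg1* had 0.714 (0.605 to 0.843), *Snhg3* 0.414 (0.240 to 0.690) and *Snhg5* 0.548 (0.373 to 0.796) in knockout cells, and 0.927 (0.823 to 1.04), 0.901 (0.725 to 1.12) and 0.843 (0.687 to 1.04) in wild-type cells.

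Across single cells of this depth class the correlations were weak, as they are for sparse counts. Of the log-scaled host levels with RP share, Pearson's r was highest for *Snhg8*, at 0.1996 over 1042 wild-type and 0.251 over 507 knockout cells, and lowest for *Snhg1* in knockout cells, at -0.323. With nuclear share it was highest for *Gas5* in wild-type cells, at 0.234, where Spearman's rho was 0.0699. Collagen-rich cells were kept here too. The points share a library and a total, and are given as a description.

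**Figure D4:**
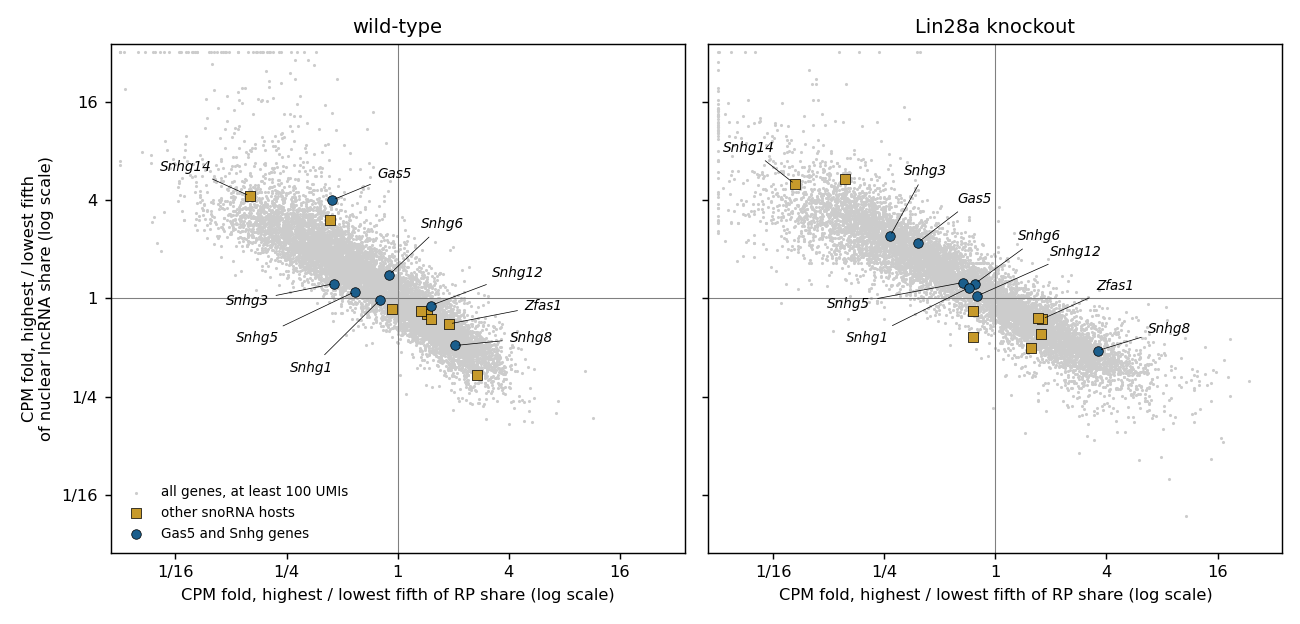
Each point is a gene with at least 100 UMIs in that library, outside the RP and nuclear sets, with its CPM fold between the highest and lowest quintile of RP share (x axis) and of nuclear share (y axis), both on log scales; genes beyond the axes are drawn at the edge, and 7 wild-type and 15 knockout genes with 0 UMIs in a quintile are left out. The *Gas5* and *Snhg* genes (blue circles) are spread along the diagonal on which most genes lie, from *Snhg8* at the lower right to *Gas5* and *Snhg3* at the upper left, and other hosts (yellow squares) also span it.

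*Gas5* was the host with the largest difference between kinds of cell. Cells with at least 1% of their UMIs on *Col1a1*, *Col1a2* and *Col3a1*, the genes of fibrillar collagen, numbered 31 in wild-type and 16 in knockout cells. These collagen-rich cells are a range and not a type, and 10 and 5 further cells had between 0.5% and 1%. Their median level of *Sparc*, a matrix protein, was 9137 and 5461 CPM against 203 and 173 CPM in other cells, and *Pou5f1*, a pluripotency factor, had a UMI in 1 of 31 and 0 of 16. *Gas5* had 210 CPM (163 to 267) in the collagen-rich cells and 13.96 CPM (11.9 to 16.3) in the other cells of the wild-type library, a ratio of 15.04 (11.1 to 20.1). In knockout cells it had 165 CPM (85.2 to 288) and 17.4 CPM (14.8 to 20.3), a ratio of 9.50 (4.81 to 17.1), from 12 UMIs in 6 cells.

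In the wild-type library 24 of 31 collagen-rich cells had a *Gas5* UMI, with up to 9 in a cell. In cells with no collagen UMI it was 109 of 1594, with up to 2, at a median depth of 6035.5 UMIs against 9310 in the collagen-rich cells. These cells gave 67 of its 225 *Gas5* UMIs. Without collagen-rich cells the ratio of knockout over wild-type CPM was 1.24 (0.993 to 1.56), and the fold by nuclear share was 1.69 (1.02 to 2.82) in wild-type and 1.58 (0.814 to 3.07) in knockout cells. Among knockout cells the fold by RP share was 0.317 (0.147 to 0.674) without them. Cells of 0.1% to under 1% collagen stayed in these values. In such cells *Gas5* had 164 CPM (102 to 251) in the wild-type library, from 21 UMIs in 36 cells. In the knockout library it had 34.2 CPM (7.06 to 100.1) there, from 3 UMIs in 32 cells. In cells with no collagen UMI it had 12.1 CPM (10.02 to 14.5) in wild-type and 15.9 CPM (13.2 to 18.9) in knockout cells.

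*Snhg6* was also higher in collagen-rich cells, by 2.73-fold (1.79 to 4.01) in the wild-type, at 87.7 and 32.2 CPM, and by 3.72-fold (1.59 to 7.43) in knockout cells, from 8 UMIs. *Snhg1* was lower there, at ratios of 0.434 (0.268 to 0.665) and 0.236 (0.0487 to 0.692), and so were *Snhg3* at 0.336 (0.109 to 0.789) and *Snhg5* at 0.292 (0.0943 to 0.684) in the wild-type library, each from 5 UMIs. In the knockout collagen-rich cells *Snhg3* had 0 UMIs, which allows up to 41.2 CPM by a limit of 3 counts and 50.7 CPM by the exact interval. *Snhg5* had 1 UMI there. *Snhg8* and *Snhg12* had intervals that included 1 in both libraries. Without collagen-rich cells the ratios of the libraries for the 6 *Snhg* genes stayed within the intervals of all cells.

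**Figure D5:**
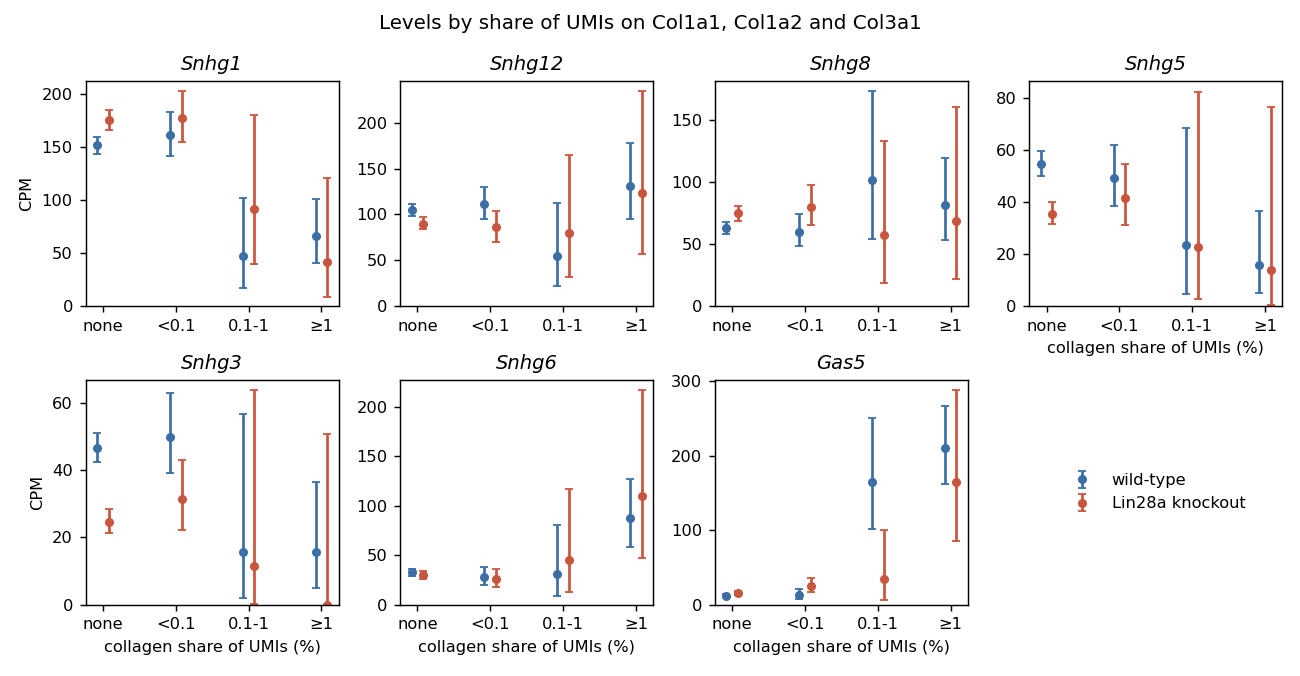
CPM of each host in cells grouped by the share of their UMIs on 3 collagen genes (no collagen UMI, under 0.1%, 0.1% to under 1%, and 1% or more), in the wild-type (blue) and knockout (red) library, with exact Poisson intervals at 95%. *Gas5* rests at 12.1 and 15.9 CPM in cells without collagen UMIs and reaches 210 and 165 CPM in collagen-rich cells; the groups above 0.1% hold 16 to 36 cells each.

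Cells with an RP share under 5% were the last range examined, 91 wild-type and 233 knockout cells, with medians of 830 and 1214 UMIs. In these knockout cells *Snhg12* had 202 CPM (156 to 256), from 66 UMIs in 52 cells with at most 3 in a cell, 2.35-fold (1.80 to 3.03) above the other knockout cells. *Snhg3* had 51.9 CPM (30.2 to 83.1), a ratio of 2.15 (1.23 to 3.52), from 17 UMIs. The others were lower or not distinct. *Snhg1* had a ratio of 0.519 (0.349 to 0.744), *Snhg8* of 0.316 (0.136 to 0.627), *Snhg6* of 0.296 (0.0607 to 0.874) from 3 UMIs, *Snhg5* of 0.584 (0.233 to 1.22) and *Gas5* of 1.87 (0.915 to 3.43). With collagen-rich cells left out of the low-RP cells, *Snhg12* had 2.43-fold (1.86 to 3.12) and *Snhg3* 2.21-fold (1.27 to 3.63).

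The 91 wild-type cells held between 1 and 9 UMIs of each host. *Snhg12* had 92.0 CPM (42.1 to 175) there, a ratio of 0.866 (0.395 to 1.65), and *Snhg3* 0.892 (0.242 to 2.30). The wild-type interval of *Snhg12* lay below the 2.35-fold of knockout cells, while that of *Snhg3* included the 2.15-fold, so that for *Snhg3* the depth did not allow the patterns to be told apart. Whether the libraries differ was not tested. *Snhg1* had 0.477 (0.192 to 0.986), *Snhg8* 0.160 (0.00405 to 0.895), the latter from 1 UMI, and *Gas5* 2.68 (0.862 to 6.35). Of the 91 cells 5 were collagen-rich, and *Col1a1* was at 5337 CPM against 439 CPM in the other wild-type cells. In the 86 cells left without these 5, the intervals of *Snhg1*, 0.505 (0.185 to 1.101), and *Snhg8*, 0.198 (0.00499 to 1.104), included 1. *Gas5* had 3.31 (1.06 to 7.84) there, from 5 UMIs. The wild-type cells of at least 5% RP that the 86 were set against kept their collagen-rich cells. *Snhg12* had 1.07 (0.488 to 2.04) in the 86 cells, an interval that overlapped the 1.86 to 3.12 of the matching knockout cells. *Snhg6* had 2 UMIs in the 91 cells and 0 in the 86, which allows up to 37.8 CPM by a limit of 3 counts and 46.5 CPM by the exact interval. *Malat1* was high in the low-RP cells, at 27166 CPM in wild-type and 8888 CPM in knockout cells, and *Pou5f1* was at 102 and 238 CPM against 838 and 1014 CPM over all kept cells. The part of damaged cells in these values was not tested.

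Genes with a profile like the mean of the hosts were sought over the 10 groups of library and RP quintile. Of 3814 genes with at least 1000 UMIs, the most alike were *Magoh*, a subunit of the exon junction complex (Pearson's r of 0.957), *Mrpl18*, a mitochondrial ribosomal protein (0.942), *Cks2*, a cell cycle gene (0.935), *Gm6563* (0.935) and *Max*, the partner of MYC (0.925). No RP gene was among them. The mean hides the differences among the hosts. Over the same groups, *Snhg3* and *Snhg5* had an r of 0.885 and *Snhg5* and *Snhg6* of 0.834, while *Gas5* and *Snhg8* had -0.757 and *Snhg3* and *Snhg8* -0.687. The genes most like each host, chosen after the values were seen, were *Ftl1-ps1* for *Snhg8* (0.992), *Sub1* for *Snhg5* (0.983), *Gm15421* for *Snhg1* (0.979), *Eif2s2* for *Snhg3* (0.978), *Map4k4* for *Gas5* (0.919), *Rpl22l1* for *Snhg6* (0.883) and *Gm12346* for *Snhg12* (0.849). *Nop56*, the C/D snoRNP protein and itself a snoRNA host, came next but one for *Snhg12*, at 0.811. The 10 groups share 2 libraries and the order of RP share, and these values are a description.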

How the data were processed

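UMI counts per gene and barcode were analysed as deposited by the authors, for 1 wild-type and 1 *Lin28a* knockout inDrop library. The submitters' processing notes name the mm10 build and Seurat 2.3.4, and the aligner is not given in the sources used here. Of 54146 gene identifiers, 54079 matched GENCODE mouse release 21 (GRCm38). The tables held 12079546 wild-type UMIs over 4329 barcodes and 10027710 knockout UMIs over 6060 barcodes. Barcodes under 500 UMIs (2472 and 4423) or over 20% mitochondrial UMIs (1 and 15) were removed and doublets kept. Scrublet (scanpy 1.11.5) marked 27 and 18 cells.

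UMIs were summed over cells and divided by their total. Intervals are exact at 95% and cover counting error only, and no test was made, since each genotype had 1 library. Shares at 500 UMIs per cell leave out no cell. Nuclear and RP quintiles were made within each library. A difference was counted past 1.5-fold. Python 3.11.15, numpy 2.4.6, scipy 1.17.1 and pandas 2.3.3 were used. The ratios and their intervals were tested on simulated Poisson counts, which hold no spread between cells beyond counting error. The quintiles and the shares at 500 UMIs per cell were not tested in this way.

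The genes and lists were chosen with earlier results of these data known. Named were the 7 hosts, *Lin28a* and, of each other list, the 3 most abundant genes and up to 5 past 1.5-fold, along with the 5 genes of at least 1000 UMIs most like the mean of the hosts and the snoRNAs within the hosts. Outside this rule, *Snhg11*, *Eef2* and *Rack1* were named for their folds by RP share, and *Fbl* and *Snu13* as core C/D proteins. The lists were other noncoding hosts, 5′TOP mRNAs, C/D and H/ACA snoRNP genes, NMD factors, nuclear long noncoding RNAs, and ES, fibroblast and primitive endoderm markers. The last summed to 13.1 CPM in wild-type and 13.4 CPM in knockout cells, with *Foxa2* at 0 UMIs in wild-type cells. Alternatives changed the cell filters, the scaling, the cells kept, the quintiles and the gene sets.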

Additional observations from a re-analysis of the deposited data

Results flagged for a closer look

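Barcodes under 500 UMIs, which were left out of the cells the report compares, also held UMIs of all 7 hosts, above the limit that a count of 0 allows. Their levels in wild-type and knockout barcodes were 22.8 and 7.43 CPM for *Gas5*, 91.1 and 93.6 CPM for *Snhg1*, 18.2 and 13.4 CPM for *Snhg3*, and 41.0 and 31.2 CPM for *Snhg5*. *Snhg6* had 15.9 and 11.9 CPM, *Snhg8* 25.1 and 41.6 CPM, and *Snhg12* 79.7 and 57.9 CPM. Relative to the kept cells, *Snhg1* had a ratio of 0.610 (0.435 to 0.835) in wild-type and 0.539 (0.412 to 0.694) in knockout barcodes, and *Snhg8* of 0.395 (0.196 to 0.711) and 0.552 (0.364 to 0.805). *Gas5* had 1.18 (0.557 to 2.21) in wild-type and 0.401 (0.129 to 0.954) in knockout barcodes. These barcodes can hold free RNA or small cells, which was not tested.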

How the results depend on the processing

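Under 10 alternatives, 66 ratios of a host between the libraries stayed within the counting interval and 4 did not. These were *Gas5*, at 1.24 without collagen-rich cells and 1.19 in cells of 5000 to 10000 UMIs, and in the latter cells also *Snhg1* at 1.07 and *Snhg3* at 0.449. The folds by RP and nuclear share were taken under 11 alternatives. Of the folds of single hosts by RP share in wild-type cells, 62 stayed within the counting interval, 9 left it and 6 were counted as turned in direction. In knockout cells these were 66, 9 and 2. By nuclear share 67 stayed, 8 left and 1 turned in wild-type cells, and 67 stayed and 10 left in knockout cells. The folds by RP share depended on which cells made the lowest group. With no minimum of UMIs, the median over the hosts was 1.86 in wild-type and 1.20 in knockout cells, with *Snhg1* at 1.86, *Snhg3* at 2.09 and *Snhg5* at 1.36 in wild-type and *Snhg1* at 1.67 in knockout cells. With cells of at least 5% RP set against the rest, the median was 1.29 and 1.71, with *Snhg1* at 2.09, *Snhg3* at 1.12 and *Snhg5* at 1.29 in wild-type and *Snhg1* at 1.93 in knockout cells. A minimum of 1000 UMIs gave a knockout median of 0.481. By nuclear share with no minimum, the wild-type median was 1.74 and *Snhg8* was at 3.84, and *Gas5* had no value, with 0 UMIs in the lowest group. The causes were not tested. The RP set widened to 93 genes, an alternative chosen after seeing the data, gave medians of 0.801 and 0.706 by RP share. No paired analysis was possible because the labels give no replicate numbers and each genotype had 1 library. Depth limits the values from low-RP and collagen-rich cells, many of which rest on under 10 UMIs.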
